A study of Danio rerio with 12 samples.

Results

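The genes described here encode the proteins of the cytosolic ribosome in zebrafish larvae. They were taken as the protein-coding genes whose symbol begins RPL or RPS followed by a number, by P and a number, or by A, in either case of letters, leaving out the RPS6K kinases. This rule uses names only and gave 84 of the 35004 genes in the deposited table. Of these, 47 encode large-subunit proteins or their paralogues and 36 encode small-subunit proteins or their paralogues. The remaining gene, rps19bp1, encodes a binding partner of the small-subunit protein Rps19 and no ribosomal subunit, and was taken in by its name.

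Each cytosolic ribosome joins a small subunit, which reads the mRNA, to a large subunit, which forms peptide bonds. Vertebrate mRNAs for these proteins begin with a tract of pyrimidines, the 5′ TOP motif, through which the kinase complex mTORC1 controls their translation as a group. GCN2 is a kinase that senses uncharged tRNA and stalled ribosomes and phosphorylates the initiation factor eIF2α, which lowers general initiation. Loss of single ribosomal protein genes causes Diamond-Blackfan anaemia in humans.

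Poly(A) RNA was sequenced from whole larvae at 3 days after fertilization in 4 groups of 3 biological replicates. The groups were gcn2 knockout larvae in hypoxia, wild-type larvae in hypoxia, gcn2 knockout larvae in normoxia and wild-type larvae in normoxia, with the oxygen condition held for 8 hours. The oxygen level, the knockout allele, the strain and the number of larvae per library are not given in the sources used here. Whether the replicates came from separate clutches is not stated either, so p-values measure the spread between these libraries.

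Transcripts of eif2ak4, the gene for GCN2, stood at 1.55, 1.95 and 1.52 FPKM (fragments per kilobase of gene, scaled for library size) in knockout hypoxia, against 4.23, 4.18 and 4.25 FPKM in wild-type hypoxia. In normoxia they stood at 1.66, 1.85 and 1.70 FPKM in knockout larvae, against 3.82, 3.91 and 3.63 FPKM in wild-type larvae. No knockout library overlapped a wild-type library, and the genotype labels held for all 12. Reads recovered from the FPKM steps ran from 15668848 to 16841145 per library. Ribosomal protein genes took 6.99% ± 0.33 of the reads in knockout hypoxia, 6.64% ± 0.50 in wild-type hypoxia, 6.18% ± 0.10 in knockout normoxia and 6.46% ± 0.059 in wild-type normoxia (SD, n = 3 each).

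Ribosomal protein transcripts were among the most abundant of the larva. On the FPKM scale, which divides by the deposited gene length, the median of the members' mean levels was 650 FPKM, against 5.07 FPKM for all genes tested. Means of at least 100 FPKM were found for 76 members and of at least 1000 FPKM for 19. Members made up 37 of the 100 genes with the highest mean. Per length, rplp0, which encodes the stalk protein P0, stood highest with a mean of 2049 FPKM over all 12 libraries. It was followed by rps2, whose protein lines the mRNA entry channel, with 1781 FPKM.

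Of the members, 7 averaged under 50 FPKM, and 4 of these are paralogues of an abundant gene. One of them, rpl7l1, averaged 16.5 FPKM beside 1163 FPKM for rpl7. The gene listed as RPL26 averaged 0.061 FPKM and was the only member below the test's filter of 1 FPKM in at least 3 libraries, which left 83 tested. The gene listed as RPL9 averaged 1.57 FPKM. How reads shared by near-identical copies were assigned is not given in the sources used here, so the levels of these copies and of other paralogue pairs are uncertain.

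In gcn2 knockout larvae, hypoxia was accompanied by higher transcripts of most ribosomal proteins, by a similar small amount in both subunits. Of 83 members tested, 63 rose in knockout hypoxia over knockout normoxia and 1 fell, by limma on log2(FPKM + 1) with a Benjamini-Hochberg adjusted p under 0.05. Over all 21480 genes tested, 21.8% rose and 22.2% fell. The median change of the members was 0.31 on the log2 scale, against -0.0003 for all genes. Genes that rose did so by 0.22 (rps7) to 0.50 (rps27l) on that scale. Among the other 476 genes with a mean of at least 100 FPKM, a comparison added after the data were seen, 52.9% rose and 16.6% fell, with a median of 0.20.

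The large subunit had 37 of 46 tested members higher and 1 lower, with a median of 0.31. In the small subunit 26 of 36 were higher and none lower, with a median of 0.32. All 3 knockout hypoxia libraries lay above all 3 knockout normoxia libraries for 72 members, or 86.7%, where the same was true of 27.3% of all genes. They lay below for rpl7l1 alone, against 28.0% of all genes. In bulk RNA of whole larvae, a change in the number of cells that make a transcript and a change in RNA per cell cannot be told apart.

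The acidic stalk of the large subunit, which recruits translation factors and activates GCN2 in biochemical work on mammalian ribosomes, had 5 of its 5 genes higher. Under quantile normalization, only rplp2 of the 5 was still called. The call for rplp2l was also lost by TPM scaling, by total reads and without replicate 1 of knockout hypoxia or replicate 2 of knockout normoxia. The gene for its base, rplp0 (chromosome 5, 1950660 to 1963498, GRCz11), stood at 2417, 2281 and 2152 FPKM in knockout hypoxia, against 1726, 1735 and 1699 FPKM in knockout normoxia. All hypoxia libraries were high and the groups were far apart, with a change of 0.41 ± 0.066 (log2, SE; limma adjusted p = 0.000323). The gene rplp2 (chromosome 6, 49508805 to 49510553), for the stalk protein P2, stood at 1271, 1120 and 1154 FPKM in knockout hypoxia and at 918, 865 and 869 FPKM in knockout normoxia. Its change of 0.42 ± 0.065 had the smallest adjusted p of all members in this comparison (limma, 0.000231), and its groups did not overlap either. The changes for rplp1 (0.30), rplp2l (0.32) and rpl12 (0.35), whose protein holds the stalk base, were of the same order.

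The proteins L5 and L11 join the 5S rRNA before they enter the ribosome and, when free, bind the p53 regulator Mdm2. All 3 of their genes rose in knockout hypoxia. Each call held in all 12 fits that left out a library, but none of the 3 held under quantile normalization. The values there were 0.083 for rpl11, 0.0425 for rpl5a and 0.0755 for rpl5b (limma adjusted p = 0.0919, 0.354 and 0.107). The gene rpl11 (chromosome 19, 43780970 to 43786940) stood at 1328, 1227 and 1131 FPKM in knockout hypoxia, against 1005, 929 and 977 FPKM in knockout normoxia. The lowest hypoxia library was above the highest normoxia library, and the change was 0.34 ± 0.067 (log2, SE; limma adjusted p = 0.00137). The 2 genes listed as RPL5 changed by 0.28 (rpl5a, chromosome 2) and 0.34 (rpl5b, chromosome 6). Of the 3 genes whose proteins line the exit tunnel, rpl4 (0.36) and rpl17 (0.42) rose and rpl39 had a value of 0.25 that did not pass (limma adjusted p = 0.194).

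The 2 largest changes of the small subunit were in genes for rpS27 and its paralogue. The gene rps27.1 (chromosome 19, 8743260 to 8748571) stood at 1335, 1207 and 1161 FPKM in knockout hypoxia, against 913, 894 and 943 FPKM in knockout normoxia. The groups were well apart, with a change of 0.43 ± 0.069 (log2, SE; limma adjusted p = 0.00032). Its copy rps27.2 rose by 0.36. The paralogue rps27l, a p53 target in mammals, stood at 36.6, 54.7 and 52.3 FPKM in knockout hypoxia and at 35.3, 32.4 and 31.5 FPKM in knockout normoxia. Here replicate 1 of knockout hypoxia was close to the normoxia libraries and the other two were far above. The change of 0.50 ± 0.14 passed the test (limma adjusted p = 0.0132), but not when replicate 2 (0.40, adjusted p = 0.0605) or replicate 3 (0.43, adjusted p = 0.0531) of knockout hypoxia was left out.

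Of 21 tested genes whose human counterparts carry Diamond-Blackfan anaemia variants, 16 rose in knockout hypoxia and none fell, with a median of 0.29. Their share of rises, 76.2%, was close to the 75.9% of all members, against 21.8% of all genes. The rises included rps19 (0.32), rps24 (0.33), rpl35a (0.29) and rps7 (0.22). Of the 12 fits that left out a library, the call was lost in 5 for rpl35a, in 3 for rps19 and in 3 for rps7, and in none for rps24. The calls for rpl35a, rps19 and rps7 were also lost by TPM, total read and quantile scaling. A lower level was called for rpl7l1 alone, a paralogue of rpl7 whose yeast relative Rlp7 acts in assembly of the large subunit. The 19 members that passed in neither direction included rps2 at 0.06, with a 95% interval of -0.06 to 0.19. When replicate 1 of knockout hypoxia was left out, 49 members rose, where 18.9% of all genes did, and the members' median was 0.25.

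**Figure D1:**
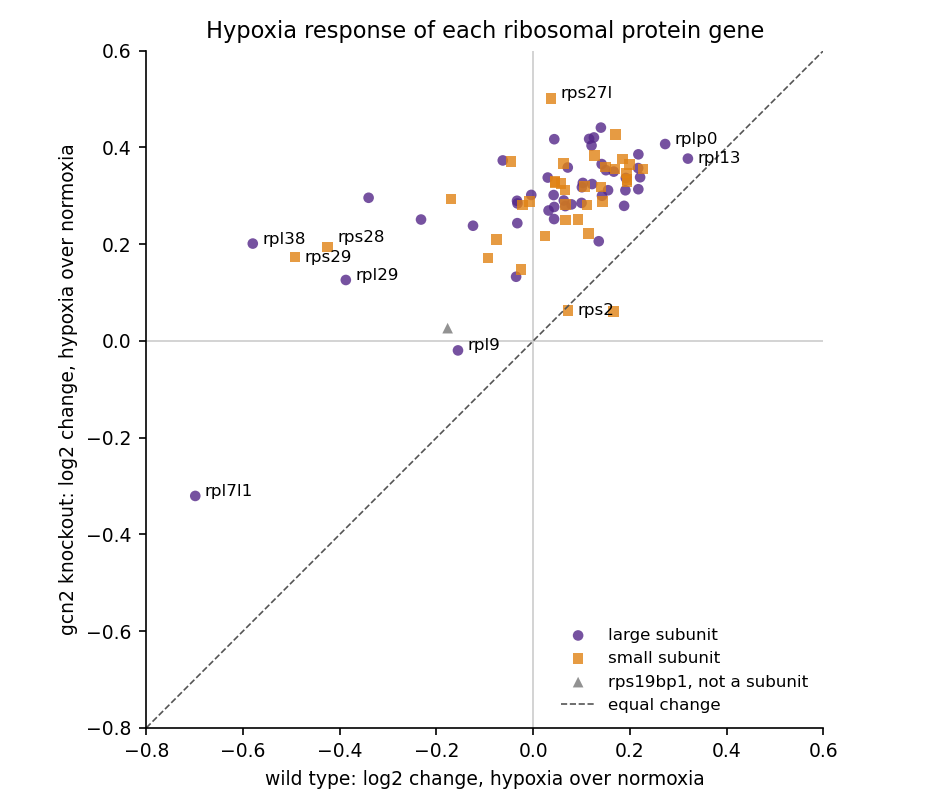
Each point is 1 of the 83 tested members, with the log2 change of hypoxia over normoxia in gcn2 knockout larvae on the vertical axis and in wild-type larvae on the horizontal axis; the dashed line marks equal change. Of the points, 81 lie above the line, and rpl7l1 stands farthest to the lower left.

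In wild-type larvae the same oxygen contrast moved few ribosomal protein genes. Of the 83 members, 11 rose in wild-type hypoxia over wild-type normoxia and 1 fell, where 16.8% and 19.2% of all genes did. That is 13.3% and 1.2% of the members, a share of rises no higher than the background with all libraries as deposited. This comparison depended on the setting. By TPM scaling 22 rose and by quantile normalization 18, larger shares than the 14.1% and 17.9% of all genes. Without replicate 3 of wild-type hypoxia 25 rose, also a larger share than the 15.4% of all genes. Without replicate 1 of that group 4 rose, where 15.4% of all genes did. The members' median change was 0.07 on the log2 scale, but 0.01 without replicate 1 of wild-type hypoxia and 0.15 without replicate 3 of that group. Scaled to total reads it was 0.0021, where the all-gene median shifted to -0.046 from 0.0076 as deposited. Relative to all genes, the members' median was 0.048 by total reads and 0.065 as deposited. By the unadjusted p under 0.05, 22 were higher and 4 lower, against 21.7% and 23.4% of all genes. By the adjusted test, 32.1% of the other genes of at least 100 FPKM were higher and 26.7% lower, with a median of 0.02. Wild-type hypoxia lay wholly above wild-type normoxia for 23 members, or 27.7%, against 22.4% of all genes. It lay wholly below for 2, rpl7l1 and rpl9, against 23.8%.

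The 11 that rose in wild type included rplp0, rpl13, rpl4, rpl5b, rpl6, rpl8, rpl24, rps4x, rps6 and rps27a. Of the 12 fits that left out a library, the call was lost in 10 for rps27a, 8 for rpl24 and 4 for rps4x. It was lost in 3 for rps6, 2 for rpl5b, 2 for rpl8 and 1 for rpl6. The calls for rplp0, rpl13 and rpl4 held in all 12, but that for rplp0 was lost under quantile normalization (0.0352, limma adjusted p = 0.566). All 11 rose in knockout larvae too, which makes 11 of the 63 that rose there. The gene rpl13, for a large-subunit protein, stood at 633, 529 and 500.0 FPKM in wild-type hypoxia, against 450.4, 430 and 444 FPKM in wild-type normoxia. The groups did not overlap, replicate 1 of hypoxia was well above the others, and the change was 0.32 ± 0.081 (log2, SE; limma adjusted p = 0.00823). The stalk gene rplp0 stood at 2540, 2207 and 2144 FPKM in wild-type hypoxia and at 1896, 1870 and 1922 FPKM in wild-type normoxia, a change of 0.27 ± 0.066 (limma adjusted p = 0.00612). Here too replicate 1 was the highest and no library of the groups overlapped. Of the other stalk genes, none was called, with rplp1 and rplp2 both at 0.04. Of the 5S partner genes, rpl5b alone was called (0.22), and rpl11 had a value of 0.03. Of the exit tunnel genes, rpl4 alone was called (0.22). Of the 21 anaemia genes, 1 rose in wild-type hypoxia, and this was rpl5b. Their share of rises was 4.76%, against 13.3% of all members and 16.8% of all genes.

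The gene rpl7l1 (chromosome 20, 36675083 to 36679233) was the only member called lower in hypoxia in both genotypes. It stood at 14.3, 13.0 and 14.3 FPKM in knockout hypoxia, against 17.2, 18.5 and 17.0 FPKM in knockout normoxia. In wild-type larvae it stood at 13.7, 12.5 and 12.6 FPKM in hypoxia, against 20.1, 21.6 and 23.1 FPKM in normoxia. Every hypoxia library was below every normoxia library of its genotype, with a change of -0.32 ± 0.066 in knockout larvae (log2, SE; limma adjusted p = 0.00169) and -0.70 ± 0.066 in wild type (limma adjusted p = 5.8e-06). The highest library of all was a wild-type normoxia one. Its paralogue rpl7 changed by 0.25 in knockout larvae and by 0.04, which did not pass, in wild type.

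**Figure D2:**
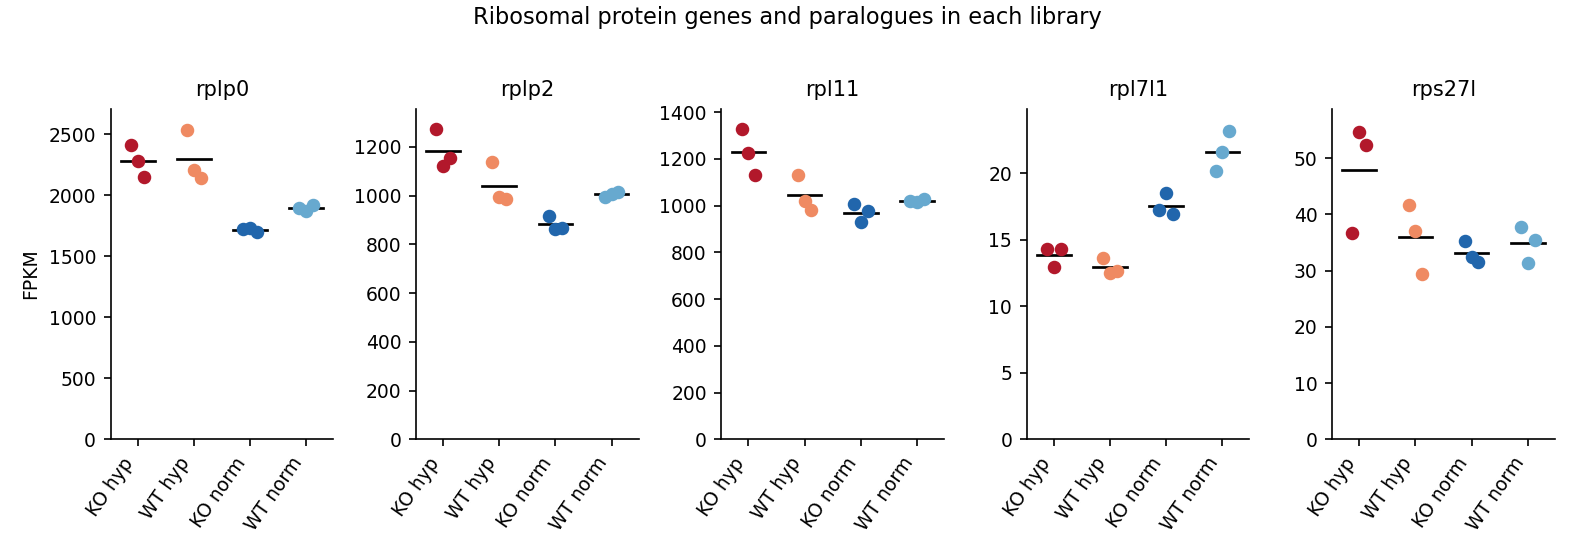
FPKM of 5 members in each library (points) with group means (lines), in gcn2 knockout (KO) and wild-type (WT) hypoxia (hyp) and normoxia (norm); axes start at 0. The genes rplp0, rplp2 and rpl11 have their lowest means in knockout normoxia, rpl7l1 is highest in wild-type normoxia, and rps27l reaches 54.7 FPKM in knockout hypoxia.

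Set directly against wild type in hypoxia, knockout larvae showed few called differences. Of the 83 members, 5 were higher in knockout hypoxia and none lower, against 17.0% and 16.2% of all genes, and the median difference was 0.11. By the unadjusted p, 17 were higher and none lower, against 21.7% and 21.5% of all genes. Of the other genes of at least 100 FPKM, 32.1% were higher and 17.2% lower, with a median of 0.08. The 5 were rpl11 (0.23), rpl5a (0.18), rplp2 (0.19), rps24 (0.21) and rps19bp1 (0.35). For rpl11 the knockout hypoxia libraries given above compare with 1132, 1019 and 983 FPKM in wild-type hypoxia. The ranges met at the lowest knockout and the highest wild-type library, and the difference had a limma adjusted p of 0.0181. Libraries of the genotypes were wholly apart for 2 members, rps27.2 and rps19bp1, which is 2.41% against 21.4% of all genes. No member lay wholly below, against 21.3%.

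Most of these calls depended on which libraries were included. Without replicate 1 of wild-type hypoxia 41 members were called higher in knockout hypoxia, with a median of 0.18, where 16.0% of all genes were. Without replicate 3 of that group 1 member was called, with a median of 0.04, where 16.4% of all genes were. Without replicate 2 of that group 1 member was called too, where 12.8% of all genes were. Without replicate 1 of knockout hypoxia 2 members were called, of which 1 was among the 5, where 13.2% of all genes were called higher. Without replicate 2 of knockout hypoxia, any knockout normoxia library, or replicate 1 or 3 of wild-type normoxia, 3 of the 5 were called. Of all genes, 13.9% were higher without replicate 2 of knockout hypoxia and 16.1% to 16.4% in the fits without a normoxia library. Of the 12 fits that left out a library, the call was lost in 3 for rpl11, 4 for rps24, 9 for rpl5a and 10 for rplp2. The call for rps19bp1, the gene that is no ribosomal subunit, held in all 12. It stood at 6.78, 6.24 and 6.30 FPKM in knockout hypoxia, against 5.15, 4.23 and 5.16 FPKM in wild-type hypoxia.

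Of the 83 members, 3 were lower in knockout normoxia than in wild-type normoxia and none higher, against 9.11% and 7.63% of all genes, and the median difference was -0.11. Of the other genes of at least 100 FPKM, 26.9% were lower and 7.14% higher, with a median of -0.095. By the unadjusted p, 17 members were lower and none higher, against 17.1% and 14.5% of all genes. The members' median was -0.05 by TPM scaling and -0.02 by quantile normalization. All-gene medians were 0.04 and -0.01 in these settings, against -0.01 as deposited. Relative to all genes, the members' median was -0.093 by TPM, -0.0085 by quantile normalization and -0.101 as deposited. All 3 knockout normoxia libraries lay below all 3 wild-type normoxia libraries for 59 members, or 71.1%, against 21.8% of all genes. The reverse held for 1 rare member, against 18.8%. Fitted on these 6 libraries alone, where the spread is that of normoxia, 32 members passed as lower, against 11.6% of all genes.

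The 3 called were rpl7l1 (-0.28), rps27.1 (-0.27) and rpl12 (-0.22). For rps27.1, the knockout normoxia libraries given above compare with 1111, 1033 and 1168 FPKM in wild-type normoxia, and the groups did not overlap (limma adjusted p = 0.0203). For rpl12 (chromosome 5, 32882688 to 32887020) the values were 602, 586 and 605 FPKM in knockout normoxia, against 676, 688 and 730.4 FPKM in wild-type normoxia. All knockout libraries were below, by 0.22 ± 0.064 (log2, SE; limma adjusted p = 0.0312). Leaving out replicate 3 of wild-type normoxia removed all 3 calls, where 4.95% of all genes were lower, against 9.11% with all libraries. Leaving out replicate 2 or 3 of knockout normoxia or replicate 1 of wild-type normoxia left 1, where 5.82%, 5.51% and 5.88% of all genes were lower. Leaving out replicate 1 or replicate 3 of wild-type hypoxia, which changes only the shared spread, gave 12 and 11. There 10.1% and 9.95% of all genes were lower. The count was 6 with replicate 1 of knockout hypoxia left out, where 9.22% of all genes were lower.

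Whether the oxygen response differed with genotype was tested by the interaction, the response in knockout larvae minus that in wild-type larvae. This was positive for 81 of 83 members, with a median of 0.22, against 0.03 for all genes and 0.18 for the other genes of at least 100 FPKM. Members share libraries, so their signs are not separate observations, and the share of all genes with a positive value was not counted. By the adjusted test 2 members passed as higher and none as lower, or 2.41%, where 4.74% of all genes passed as higher and 4.5% as lower. Of the other genes of at least 100 FPKM, 16.8% passed as higher and 2.31% as lower. By the unadjusted p, 39 members were higher and none lower, against 15.0% and 12.6% of all genes. The members called were rpl7l1 (0.38 ± 0.093, limma adjusted p = 0.0283), which fell less in knockout larvae, and rplp2 (0.37 ± 0.092, limma adjusted p = 0.0282), which rose in knockout larvae and was at 1139, 993 and 987 FPKM in wild-type hypoxia and 995, 1008 and 1016 FPKM in wild-type normoxia. For rplp2 the wild-type groups overlapped and the knockout groups did not. The next by adjusted p was rpl11 (0.31, limma adjusted p = 0.06), which did not pass.

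This test depended on which wild-type hypoxia library was in it. With replicate 1 of wild-type hypoxia left out, 46 members passed as higher in the interaction, with a median of 0.31, where 7.02% of all genes did. The median was 0.16 without replicate 3 of that group. When the library left out was replicate 1 of knockout hypoxia, replicate 2 of wild-type hypoxia, replicate 3 of knockout normoxia or replicate 3 of wild-type normoxia, none passed. Of all genes, 1.58%, 2.36%, 1.52% and 1.79% passed as higher in these fits, against 4.74% with all libraries. Leaving out replicate 3 of knockout hypoxia gave 4, where 4.96% of all genes passed. Leaving out replicate 1 or 2 of knockout normoxia or replicate 1 of wild-type normoxia gave 1. There 2.53%, 2.8% and 1.31% of all genes passed.

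**Figure D3:**
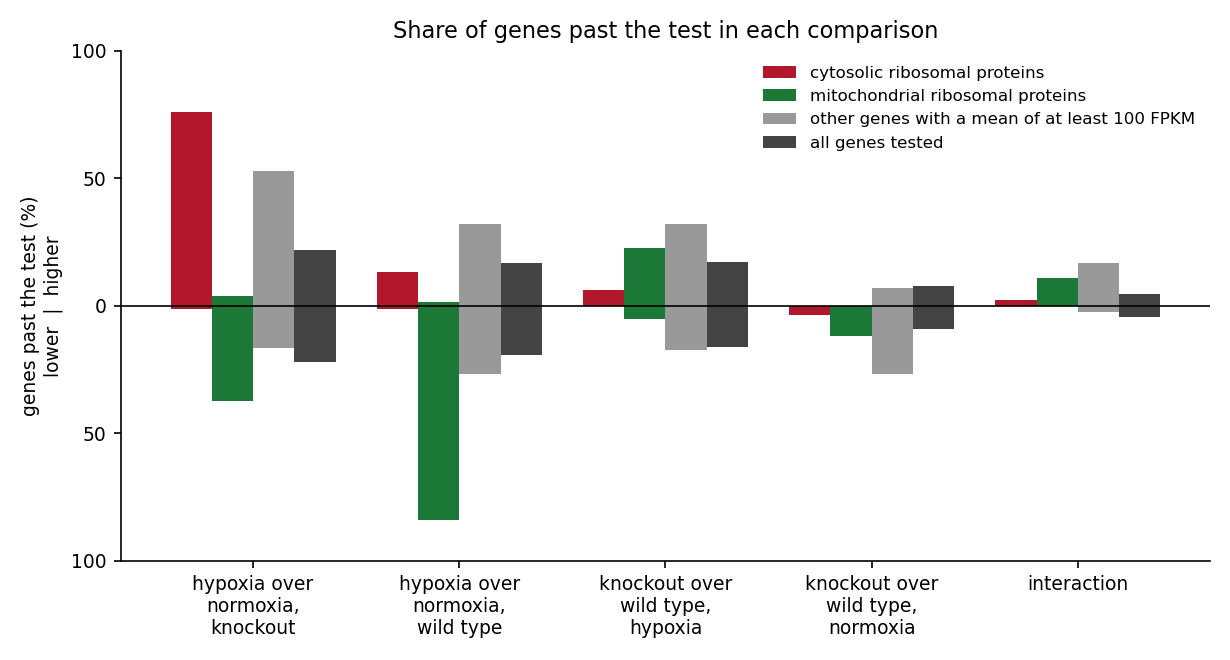
Share of genes past the test (limma adjusted p under 0.05) in each comparison, higher upward and lower downward, in percent, for cytosolic ribosomal proteins, mitochondrial ribosomal proteins, other genes of at least 100 FPKM and all genes tested. The cytosolic ribosomal proteins reach 75.9% higher for hypoxia in knockout larvae and 13.3% in wild type; mitochondrial ones reach 84.0% lower in wild type.

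Ribosomal protein genes moved together from library to library within a group. Each member's level was set against its mean in wild-type normoxia, and the median over members was taken in each library. It was 0.30, 0.15 and 0.11 in knockout hypoxia, 0.24, 0.07 and -0.06 in wild-type hypoxia, -0.08, -0.14 and -0.13 in knockout normoxia, and 0.00, -0.02 and 0.03 in wild-type normoxia (log2, replicates 1 to 3). The hypoxia libraries were spread widely and the normoxia libraries narrowly.

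Within wild-type hypoxia, replicate 1 was the highest library for 81 of 83 members and replicate 3 the lowest for 77. Over all genes, replicate 1 was the highest for 37.1% and replicate 3 the lowest for 34.5%. In knockout hypoxia, replicate 1 was the highest for 77 members. The medians over all genes stayed between -0.01 and 0.01 in every library. The deposited values had the same median-ratio factor, 1.0068, in each library. Such all-gene medians therefore follow from the scaling and are no separate observation. The median coefficient of variation of the members was 7.4% in knockout hypoxia, 10.8% in wild-type hypoxia, 3.28% in knockout normoxia and 2.77% in wild-type normoxia. For all genes it was 8.77%, 10.3%, 7.26% and 7.86% in the same order of groups, and for genes of at least 100 FPKM, members included, it was 5.41%, 7.32%, 3.11% and 3.41%.

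**Figure D4:**
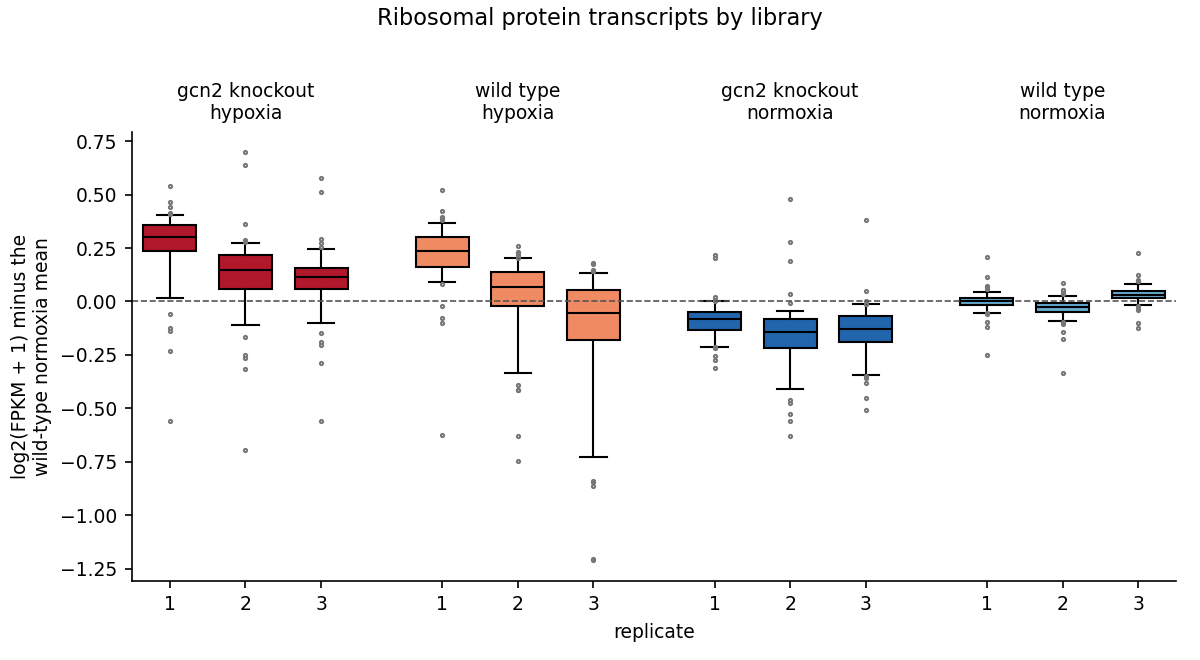
Log2 level of the members in each library relative to their mean in wild-type normoxia; boxes span the quartiles with the median as a line, whiskers the 5th to 95th percentile, and points lie beyond. Replicate 1 stands highest in both hypoxia groups, and replicate 3 of wild-type hypoxia has a long lower tail.

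A handful of genes for very small proteins, picked out after their values were seen, had the widest swings between wild-type hypoxia libraries. The gene rpl38 (chromosome 12, 38556462 to 38561842), for a large-subunit protein, stood at 165, 149 and 156 FPKM in knockout hypoxia, 193, 116 and 76.9 FPKM in wild-type hypoxia, 164, 121 and 126 FPKM in knockout normoxia, and 188, 186 and 165 FPKM in wild-type normoxia. Wild-type hypoxia held both the highest and the lowest library of the 12. The small-subunit gene rps29 (chromosome 20, 54079341 to 54085949) stood at 910.2, 795 and 831 FPKM in knockout hypoxia and at 1044, 711 and 410 FPKM in wild-type hypoxia. It stood at 848, 680.0 and 726 FPKM in knockout normoxia and at 956, 1007 and 882 FPKM in wild-type normoxia, so that wild-type hypoxia again held both extremes.

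The genes rps28, rpl37 and rpl29 had the same order of libraries in wild-type hypoxia, with 230.4, 179 and 128 FPKM for rps28. Their wild-type responses were -0.58 (rpl38), -0.49 (rps29), -0.42 (rps28), -0.39 (rpl29) and -0.34 (rpl37), and none passed the test with all libraries (limma adjusted p = 0.0718, 0.123, 0.0574, 0.0919 and 0.151). Their knockout responses, 0.20, 0.17, 0.19, 0.13 and 0.30, did not pass either. Without replicate 1 of wild-type hypoxia, 7 members passed as lower and 4 as higher in wild-type hypoxia, against 18.5% and 15.4% of all genes. Without replicate 3 of that group 25 members passed as higher, where 15.4% of all genes did. Leaving out replicate 1, 2 or 3 of wild-type normoxia gave 4, 5 and 7 higher, where 13.6%, 14.4% and 13.8% of all genes were. Leaving out replicate 2 of wild-type normoxia gave 2 lower, where 17.3% of all genes were. Leaving out replicate 1 of knockout hypoxia gave 19 higher, where 16.9% of all genes were.

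**Figure D5:**
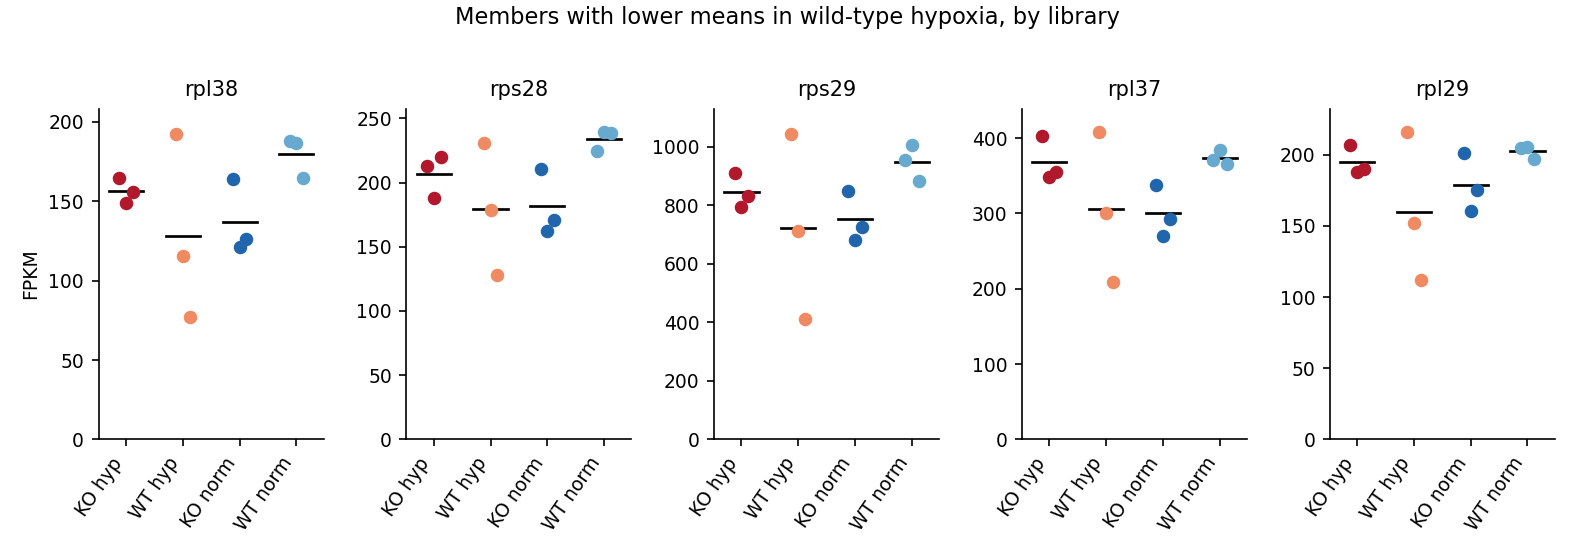
FPKM of rpl38, rps28, rps29, rpl37 and rpl29 in each library (points) with group means (lines), in gcn2 knockout (KO) and wild-type (WT) hypoxia (hyp) and normoxia (norm); axes start at 0. Wild-type hypoxia spans the widest range for each gene, from 76.9 to 193 FPKM for rpl38.

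Of 23 tested genes in the paralogue list, 16 rose and 1 fell in knockout hypoxia, and 2 rose and 1 fell in wild-type hypoxia. The knockout shares, 69.6% and 4.35%, compare with 75.9% and 1.2% of all members and 21.8% and 22.2% of all genes. The wild-type shares, 8.7% and 4.35%, compare with 13.3% and 1.2% of all members and 16.8% and 19.2% of all genes. The gene rpl22, whose protein binds RNA outside the ribosome as well, rose by 0.28 in knockout larvae, and its paralogue rpl22l1 had 0.13 (limma adjusted p = 0.128). The 2 genes for rpS26 had 0.37 (rps26, limma adjusted p = 0.0124) and 0.28 (rps26l, limma adjusted p = 0.0674). Without replicate 1 of knockout hypoxia, rpl22 (0.21, limma adjusted p = 0.0802) and rps26 (0.32, limma adjusted p = 0.0508) did not pass either, and differences between paralogues were not tested.

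Components of the ribosome whose names fall outside the rule followed in part. The scaffold gene rack1 rose by 0.29 in knockout and 0.17 in wild-type hypoxia. Its wild-type call was lost in 3 of the 12 fits that left out a library. It was also lost with no filter, by quantile normalization, with the compared groups alone and by total reads. Its knockout call was lost by quantile normalization. The gene fau, for a ubiquitin-like protein fused to rpS30, rose by 0.33 in knockout hypoxia and had 0.10, not called, in wild type. The rare copy faub fell by 0.55 in wild-type hypoxia and had 0.04 in knockout. The gene rps20, chosen after its values were seen, is outside the rule because the table classes it as a processed transcript, and averaged 1743 ± 125 FPKM in knockout hypoxia, 1493 ± 111 FPKM in wild-type hypoxia, 1580.1 ± 83.3 FPKM in knockout normoxia and 1641 ± 46.7 FPKM in wild-type normoxia (SD, n = 3 each).

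Mitochondrial ribosomal protein genes fell more often than they rose in hypoxia. Of 75 tested, 3 rose and 28 fell in knockout hypoxia (4.0% and 37.3%, against 21.8% and 22.2% of all genes), with a median of -0.18. In wild-type hypoxia 1 rose and 63 fell (1.33% and 84.0%, against 16.8% and 19.2% of all genes), with a median of -0.43. The interaction of these mitochondrial genes, like that of the cytosolic ones, was mostly positive, for 72 of 75 with a median of 0.25. It passed as higher for 8, or 10.7%, and as lower for none, against 4.74% and 4.5% of all genes. Knockout hypoxia was higher than wild-type hypoxia for 17 of the 75 and lower for 4. These shares, 22.7% and 5.33%, compare with 17.0% and 16.2% of all genes. Knockout normoxia was lower than wild-type normoxia for 9, or 12.0%, and higher for none, against 9.11% and 7.63% of all genes. Of 45 factors that build ribosomes, 5 rose and 21 fell in knockout hypoxia, or 11.1% and 46.7%. In wild-type hypoxia 4 of them rose and 30 fell, or 8.89% and 66.7%. The shares of all genes for each genotype are those given above. The gene fbl, for the rRNA methylase fibrillarin, fell by 0.80 in knockout and by 0.92 in wild-type hypoxia, and the helicase gene ddx21 rose by 0.62 in knockout and by 0.64 in wild-type hypoxia.

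Of 27 tested other genes known for TOP mRNAs, mainly elongation factors, 16 rose and 5 fell in knockout hypoxia, with a median of 0.26. That is 59.3% and 18.5%, against 21.8% and 22.2% of all genes. In wild-type hypoxia 14 rose and 5 fell, or 51.9% and 18.5%, against 16.8% and 19.2% of all genes, with a median of 0.16. The elongation factor gene eef1da rose by 0.64 in knockout and by 0.24 in wild-type hypoxia, and npm1a, for nucleophosmin, fell by 0.47 in knockout and by 0.75 in wild type. Of 30 genes of mTORC1 and TOP mRNA control, 14 rose and 7 fell in each genotype, or 46.7% and 23.3%. Of all genes, 21.8% and 22.2% did in knockout and 16.8% and 19.2% in wild-type hypoxia. The mTORC1 inhibitor gene ddit4 rose by 2.96 and 2.46, the elongation factor kinase gene eef2k by 2.15 and 1.84, and the eIF4E kinase gene mknk2b by 2.52 and 1.92 on the log2 scale, in knockout and in wild type.

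Markers of cell types moved with oxygen and genotype too. All 9 proliferation markers fell in hypoxia in both genotypes, where 22.2% of all genes fell in knockout and 19.2% in wild type. Their summed levels were 144 to 154 FPKM in knockout hypoxia, 181 to 201 FPKM in wild-type hypoxia, 368 to 388 FPKM in knockout normoxia and 437 to 482 FPKM in wild-type normoxia. The 8 erythrocyte markers summed to 1651 to 1912 FPKM in knockout hypoxia, 2362 to 3433 FPKM in wild-type hypoxia, 1042 to 1094 FPKM in knockout normoxia and 1598 to 1735 FPKM in wild-type normoxia. The 11 exocrine pancreas markers summed to 299 to 374 FPKM, 114 to 212 FPKM, 656 to 961 FPKM and 329 to 522 FPKM in the same groups. The 7 skeletal muscle markers summed to 22884 to 25912 FPKM, 24667 to 25132 FPKM, 17724 to 18555 FPKM and 20032 to 20525 FPKM in the same groups. Of 7 tested erythrocyte markers, 5 rose in hypoxia in each genotype. Of the muscle markers, 7 rose in knockout and 4 in wild type, where 21.8% and 16.8% of all genes rose. Of the pancreas markers, 9 fell in knockout and 10 in wild type. No marker of these lists was called the other way in hypoxia. Against wild type, 8 pancreas markers were higher and 1 lower in knockout larvae at each oxygen level. Erythrocyte markers had 4 lower at each level and 1 higher in normoxia. Muscle markers had 2 lower and 1 higher in hypoxia and 4 lower in normoxia, and proliferation markers 9 and 7 lower. Of all genes, 17.0% were higher and 16.2% lower in hypoxia, and 7.63% and 9.11% in normoxia. No marker was at 0 in any group, and the part of these cell types in the ribosomal protein values was not tested.

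The size of the knockout response depended on the scaling. Scaled as TPM, where the length-corrected values of each library have the same sum, 43 members rose in knockout hypoxia, with a median of 0.15, while the median of all genes shifted to -0.12. Scaled to the total of recovered reads, 43 rose, with a median of 0.18 and an all-gene median of -0.11. Of all genes, 13.0% rose by TPM, 14.1% by total reads and 21.1% under quantile normalization, against 21.8% as deposited. Relative to all genes, the members' median was 0.27 by TPM, 0.28 by total reads, 0.078 by quantile normalization and 0.31 as deposited. Under quantile normalization, which gives every library the same set of values and so also the same values among its most abundant genes, 25 rose and 2 fell, with a median of 0.08. The median of the knockout response stayed above 0 under each scaling and each left-out library.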

How the data were processed

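Poly(A) RNA of whole zebrafish larvae was sequenced in 12 libraries, grouped by sample title into 2 genotypes and 2 oxygen levels with 3 libraries each. The authors deposited 1 table of FPKM with gene lengths and coordinates. Per the submitters' processing notes, fastp, HISAT2 2.2.1, featureCounts 2.0.6 and GRCz11 were used. Strand, the handling of reads that match several genes and the scaling are not given in the sources used here. FPKM times length came in whole steps (within 0.05 of a read for 100.0% of values), from which reads were recovered. The median-ratio factor of the FPKM was 1.0068 in each library, so that rescaling by it changes nothing.

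Symbols are shown in lower case, where the table has many in capitals, and genes of 1 symbol were told apart by the table's descriptions. Genes with at least 1 FPKM in at least 3 libraries (21480) were tested on log2(FPKM + 1), where the added 1 understates changes of low genes. A single model of group means over the 12 libraries was made with limma (version 3.58.1, R 4.3.3), with a variance trend. The 4 pairwise contrasts and the interaction were each adjusted by Benjamini-Hochberg over all genes tested, with a threshold of 0.05, and intervals are at 95%. The script was tested on simulated data. Libraries of a group differed by more than counting noise, with a pairwise variance of 2.30 to 7.66 times that noise.

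The members, lists and tests were chosen with earlier results of these data known. Named members are those with the 6 smallest adjusted p-values per contrast, the paralogues, the stalk, 5S, exit tunnel and anaemia genes, and the highest and lowest member. Others are said to be chosen after their values were seen, or are named to complete a count, and rps2 was named for its level after its values were seen. A few members are not reported here by name. From each other list, up to 3 genes with the smallest adjusted p could be named. Alternatives were other pseudocounts, filters and scalings, sample weights, a replicate block, fits of the compared groups alone, voom on recovered reads and leaving out each library. Scaling to total reads and the set of other genes of at least 100 FPKM were added after the data were seen. Transcript starts were not analysed here. Python 3.11.15, pandas 2.3.3, numpy 2.4.6 and matplotlib 3.10.9 made tables and figures.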

Additional observations from a re-analysis of the deposited data

Results flagged for a closer look

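The oxygen response of rpl7l1 differed between genotypes by 0.38 on the log2 scale (knockout minus wild type; limma interaction, adjusted p = 0.0283). It fell by 0.32 in knockout larvae and by 0.70 in wild-type larvae, and every hypoxia library was below every normoxia library in each genotype. The difference ranged from 0.33 to 0.43 over the 12 fits that left out a library, of which 5 no longer passed, with a highest adjusted p of 0.0712. Those 5 left out replicate 1 of knockout hypoxia, replicate 2 of wild-type hypoxia, replicate 1 or 3 of knockout normoxia or replicate 3 of wild-type normoxia. By TPM scaling it was 0.26 (adjusted p = 0.0859).

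The response of rplp2 differed by 0.37 (knockout minus wild type; limma interaction, adjusted p = 0.0282), with a rise of 0.42 in knockout larvae and a value of 0.04 in wild-type larvae. The difference ranged from 0.32 to 0.44 over the 12 fits that left out a library, of which 6 no longer passed, with a highest adjusted p of 0.0702. It passed without replicate 2 or 3 of knockout hypoxia, replicate 1 or 3 of wild-type hypoxia, replicate 1 of knockout normoxia or replicate 2 of wild-type normoxia. Under quantile normalization it was 0.15 (adjusted p = 0.0657). With no filter it did not pass either.

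The response of faub, a rare copy of the gene for rpS30, differed by 0.58 (knockout minus wild type; limma interaction, adjusted p = 0.0212). It stood at 10.5, 11.0 and 12.5 FPKM in knockout hypoxia, 9.24, 7.44 and 8.48 FPKM in wild-type hypoxia, 9.79, 11.6 and 11.8 FPKM in knockout normoxia, and 13.5, 12.2 and 12.5 FPKM in wild-type normoxia. Wild-type hypoxia was below all other groups, and its libraries did not overlap theirs. Without replicate 1 of wild-type normoxia the difference no longer passed (adjusted p = 0.0586).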

How the results depend on the processing

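In knockout hypoxia against normoxia, 63 members rose, and 49 to 70 did when 1 library was left out. In the fits with 49 and 70, 18.9% and 22.2% of all genes rose. Quantile normalization gave 25 higher and 2 lower, with a median of 0.076, and the median was 0.15 by TPM and 0.18 by total reads. All-gene medians were -0.0022, -0.12 and -0.11 in the same order. Under quantile normalization 21.1% of all genes were higher and 22.9% lower. For wild-type hypoxia against normoxia (11 higher, 1 lower), the count of higher members was 22 by TPM and 18 by quantile normalization. It was 5 with the compared groups alone and 22 by voom, and 4 to 25 with 1 library left out. The all-gene shares higher were 14.1% by TPM, 17.9% by quantile normalization, 14.0% with the compared groups alone and 18.1% by voom. The count of lower members was 2 with a filter of 5 FPKM, 4 by TPM and 5 by quantile normalization. It was 6 by voom and 4 by total reads, and 1 to 7 with 1 library left out. The all-gene shares lower were 26.3%, 20.9%, 18.8%, 20.1% and 24.2% in the same order. For knockout against wild type in hypoxia (5 higher, 0 lower), it was 2 higher with no filter and 11 by quantile normalization. It was 1 with the compared groups alone, 16 by voom and 13 by total reads, and 1 to 41 with 1 library left out. The all-gene shares higher were 11.5%, 15.8%, 13.0%, 17.6% and 16.2% in the same order. TPM and quantile normalization gave 1 lower each, where 19.8% and 18.0% of all genes were lower. For knockout against wild type in normoxia (0 higher, 3 lower), quantile normalization gave 2 higher, where 7.84% of all genes were. It was 14 lower with sample weights, 32 with the compared groups alone and 14 by voom. The all-gene shares lower were 13.8%, 11.6% and 11.1% in the same order. With 1 library left out, 0 to 12 members were lower. For the interaction (2 higher), it was 1 with no filter, 4 with a filter of 5 FPKM and 1 by TPM. It was 1 by quantile normalization, 4 with sample weights and 20 by voom, and 0 to 46 with 1 library left out. The all-gene shares higher were 2.17%, 9.98%, 2.0%, 3.06%, 5.17% and 6.51% in the same order. The members' median in the interaction was 0.089 by TPM and 0.064 by quantile normalization. All-gene medians were -0.074 and 0.013 in these settings, against 0.028 as deposited. Relative to all genes, the members' median was 0.163 by TPM, 0.0505 by quantile normalization and 0.1875 as deposited. Apart from the filters, which change the genes tested, and from left-out libraries, the cause of these changes was not tested. Under quantile normalization rpl3 turned to 0.11 in knockout against wild type in normoxia (adjusted p = 0.0301), and in knockout hypoxia against normoxia rps7 turned to -0.039 (adjusted p = 0.402) and rps2 to -0.29 (adjusted p = 0.000102). A pseudocount of 0.1 left every count as it was. Median-ratio scaling did too, which its equal factor in each library fixes in advance.

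The residual correlation of the 18 pairs of libraries with the same replicate number lay between -0.087 and 0.12 (median 0.015). Nothing in the labels says that equal numbers share a clutch or day, so they were not read as pairs. The correlation, taken over all genes tested, cannot exclude pairing. Among the members, however, replicate 1 was the highest library for 77 in knockout hypoxia, 81 in wild-type hypoxia and 53 in knockout normoxia. In wild-type normoxia replicate 1 was the highest for 13 and replicate 3 for 63. Pairing among the members alone was not tested. A fit with the replicate block gave 4 lower in wild-type hypoxia against normoxia and 10 higher in knockout against wild type in hypoxia. It gave 9 lower in knockout against wild type in normoxia and 5 higher in the interaction. The all-gene shares of that fit were 19.0%, 16.6%, 8.83% and 4.68% in the same order. With 3 libraries a group, changes smaller than the spread of the hypoxia libraries can be missed or called depending on the libraries included. Members of a few FPKM are also limited by read counts.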
